A study of Mus musculus with 12 samples.

Results

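The neutrophil granule and calprotectin genes are 9 of the 35976 genes listed in the count files of a mouse scar RNA-seq experiment, and they were picked by symbol: *S100a8*, *S100a9*, *Lcn2*, *Camp*, *Ngp*, *Ltf*, *Chil3*, *Retnlg* and *Ly6g*. Each was found under its own symbol in every library. Scars on the back skin of male mice aged 8 to 12 weeks were sequenced, 3 mice in each of 4 groups. The groups were Tem1WT/WT sham, Tem1WT/WT traction, Tem1lacZ/lacZ sham and Tem1lacZ/lacZ traction. In Tem1lacZ/lacZ mice the lacZ reporter takes the place of the single exon of *Tem1* (listed as *Cd248*) in every cell of the body, so the loss is not limited to fibroblasts. The Tem1lacZ/lacZ line had been backcrossed to C57BL/6J. Every mouse received a 1.5 cm wound and, 6 days later, a device on it. The device was elongated by 1 mm per day to a total of 8 mm in the traction groups and stayed unstretched in the sham groups, so the sham mice carried the wound and the device too.

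Neutrophils are short-lived white blood cells that reach a wound early and carry ready-made proteins in granules. Calprotectin is the pair of *S100a8* and *S100a9* proteins, which binds calcium, zinc and manganese and is among the most abundant proteins of the neutrophil cytosol. The same pair is also made by keratinocytes at the edge of a healing wound, and *Lcn2* by many epithelia, so these transcripts are not found in neutrophils alone. *Camp*, *Ngp* and *Ltf* encode proteins of the secondary granules, and their messengers are made mostly while the cell matures in the bone marrow. *Ly6g* encodes the surface protein that serves as the usual mouse neutrophil marker. In RNA from whole tissue, fewer cells of a type and less RNA per cell cannot be told apart.

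The libraries held 41536788 to 64644293 counts, with a median of 48173798, and at least 1 count on 21855 to 23692 genes. *Cd248* followed the labels, with 0 to 13 counts in the 6 Tem1lacZ/lacZ libraries and 3883 to 16413 in the 6 Tem1WT/WT libraries. Replicate 1 of the Tem1WT/WT traction group stood apart. The 9 genes took 0.519% of its counts against 0.0026% to 0.046% in the 11 other libraries, and it had the highest level of each of the 9. *S100a9* ranked 17 among all genes in that library and 432 to 10987 in the others. The library also had the fewest genes detected, 21855, and values that rest on it are given below with and without it.

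In the GENCODE annotation of GRCm38 (release vM21), *S100a8* lies on the plus strand at chr3:90668978-90670035 and *S100a9* on the minus strand at chr3:90692632-90695721, with 22.6 kb between them and 0 tested genes in that gap. *Chil3* is on the same chromosome, at chr3:106147554-106167564 on the minus strand. *Lcn2* lies at chr2:32384633-32388252 (minus strand), *Retnlg* at chr16:48872621-48874496 (plus) and *Ly6g* at chr15:75155240-75159126 (plus). *Camp* at chr9:109847379-109849617 (minus), *Ngp* at chr9:110419747-110423012 (plus) and *Ltf* at chr9:111019271-111042767 (plus) share a chromosome. The stretch of 1170 kb from *Camp* to *Ltf* holds 21 other tested genes, of which 2 (*Ptpn23* and *Pth1r*) were called higher and 0 lower with traction in Tem1WT/WT mice. None of the 9 overlaps another gene in this annotation. Reads shared with paralogs elsewhere, such as other Ly6 or chitinase-like genes, were not examined.

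Promoter sequence is shown for the calprotectin pair and *Chil3*, the tested genes of the 9 whose groups did not overlap between traction and sham in Tem1WT/WT mice. The groups of *Ngp* and *Ly6g*, which had too few counts to be tested, did not overlap either. The bases come from the RefSeq promoters of GRCm38.p6, which matched 9 of 9 genes, and run 5′ to 3′ toward the gene, within 250 bases before its start. Capitals mark matches, on either strand, to a C/EBP type motif (TTNNGNAA) or a PU.1 and Ets type motif (AGGAAG), letters that resemble the sites of factors known from myeloid genes. The *S100a8* stretch (chr3:90668821-90668977, plus strand) stops 94 bases before the RefSeq start, because a longer GENCODE transcript begins there. The *S100a9* (chr3:90695722-90695971, minus strand) and *Chil3* (chr3:106167565-106167814, minus strand) stretches end at the base before it.
S100a8: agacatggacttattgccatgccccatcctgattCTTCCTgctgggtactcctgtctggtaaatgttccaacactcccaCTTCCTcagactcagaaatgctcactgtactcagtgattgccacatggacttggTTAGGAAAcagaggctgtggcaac
S100a9: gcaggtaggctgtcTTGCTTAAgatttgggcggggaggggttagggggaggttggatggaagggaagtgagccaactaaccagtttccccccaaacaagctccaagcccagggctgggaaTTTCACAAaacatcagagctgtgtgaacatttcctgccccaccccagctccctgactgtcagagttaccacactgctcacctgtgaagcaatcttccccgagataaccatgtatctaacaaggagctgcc
Chil3: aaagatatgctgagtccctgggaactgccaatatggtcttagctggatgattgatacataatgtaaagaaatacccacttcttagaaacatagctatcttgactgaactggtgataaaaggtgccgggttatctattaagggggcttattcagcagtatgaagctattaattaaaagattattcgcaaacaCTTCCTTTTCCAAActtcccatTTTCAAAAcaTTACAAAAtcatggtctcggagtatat
*S100a8* had a C/EBP type match 117 bases before its start and PU.1 and Ets type matches at 171 and 216 bases. *S100a9* had C/EBP type matches at 130 and 236 bases. *Chil3* had 3 C/EBP type matches, at 27, 37 and 53 bases, and a PU.1 and Ets type match at 59 bases that abuts the farthest of them without sharing a base. In the same window of 250 bases, 8 of the 9 genes (all but *Camp*) had the C/EBP type letters against 36.8% of 32851 mouse promoters, 6 of 9 had AGGAAG against 29.5%, 2 of 9 (*S100a8* and *Ly6g*) had TATAAA against 12.4%, and 0 of 9 had an NF-kB type motif against 1.41%. These motifs were picked after the sequences had been seen, and a match is a run of letters, not a shown binding site.

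Levels of the calprotectin genes are given in CPM, which sets counts against the total of their library after TMM scaling and so corrects for differences in library composition. *S100a8* was at 3.49, 22.5 and 15.1 CPM in the Tem1WT/WT sham libraries (replicates 1 to 3), 1296, 65.7 and 62.1 with traction, 38.9, 32.9 and 44.7 in Tem1lacZ/lacZ sham and 148, 40.6 and 34.0 in Tem1lacZ/lacZ traction. Tem1WT/WT sham was the lowest group, below every library of the 3 others, and Tem1WT/WT traction replicate 1 lay 8.78-fold above the next library. *S100a9* was at 8.51, 45.4 and 31.1 CPM in Tem1WT/WT sham, 3935, 125 and 141 with traction, 104, 89.8 and 109 in Tem1lacZ/lacZ sham and 302, 118 and 141 in Tem1lacZ/lacZ traction. The same library was highest by 13.04-fold, and again the Tem1WT/WT sham libraries lay below all 9 others. Replicate 1 of the Tem1lacZ/lacZ traction group came next for both genes.

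By group mean, *S100a9* ran from Tem1WT/WT traction (1400.3 ± 2195 CPM, SD, n = 3) through Tem1lacZ/lacZ traction (187 ± 100.2) and Tem1lacZ/lacZ sham (101 ± 9.93) to Tem1WT/WT sham (28.3 ± 18.6). *S100a8* had the same order, at 475 ± 711, 74.0 ± 63.8, 38.8 ± 5.88 and 13.7 ± 9.56 CPM. For both genes the traction groups of the 2 genotypes overlapped, while the sham groups did not. The SD of the Tem1WT/WT traction group exceeded its mean for both, owing to replicate 1. The place of that group at the top of the order rested on the same library. Its replicates 2 and 3 were at 125 and 141 CPM for *S100a9* and at 65.7 and 62.1 CPM for *S100a8*. Each of these values lay below the Tem1lacZ/lacZ traction mean of the same gene.

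*Lcn2* encodes lipocalin 2, which withholds iron from bacteria by binding their siderophores. It was at 8.51, 6.19 and 6.78 CPM in Tem1WT/WT sham, 650.1, 20.0 and 7.44 with traction, 35.2, 14.8 and 13.6 in Tem1lacZ/lacZ sham and 20.2, 29.2 and 17.7 in Tem1lacZ/lacZ traction. Replicate 3 with traction lay within the range of the Tem1WT/WT sham libraries, so those groups overlapped, and replicate 1 held 78.4% of the summed CPM of all 12 libraries. The group means were 7.16 ± 1.20, 226 ± 367, 21.2 ± 12.1 and 22.3 ± 6.03 CPM in that order (SD, n = 3), and both Tem1lacZ/lacZ groups lay above every Tem1WT/WT sham library.

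Levels of *Camp*, *Ngp* and *Ltf* were near the floor of detection nearly everywhere, so their counts are given. *Camp*, the precursor of the cathelicidin antimicrobial peptide, had 3, 6 and 2 counts in Tem1WT/WT sham, 52, 4 and 0 with traction, 0, 2 and 12 in Tem1lacZ/lacZ sham and 6, 2 and 16 in Tem1lacZ/lacZ traction. *Ngp*, the neutrophilic granule protein of the cathelicidin family, had 4, 1 and 2 counts, 212, 4 and 7, 0, 0 and 2, and 2, 2 and 109 in the same groups. *Ltf*, the iron-binding lactotransferrin, had 18, 4 and 16 counts, 331, 12 and 3, 4, 6 and 1, and 20, 0 and 74. Each of the 3 genes was highest in Tem1WT/WT traction replicate 1 and next in Tem1lacZ/lacZ traction replicate 3. Apart from these libraries, none of the 3 genes had more than 20 counts in a library. A library at 0 counts allows up to 3 counts, and this limit, like the counts, covers counting error alone.

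*Chil3*, the chitinase-like protein Ym1 made by neutrophils and by some macrophages, was at 2.30, 2.44 and 4.29 CPM in Tem1WT/WT sham and 72.3, 20.2 and 6.55 with traction. It was at 3.31, 3.73 and 10.2 CPM in Tem1lacZ/lacZ sham and 10.1, 17.0 and 15.2 with traction. The Tem1WT/WT groups did not overlap, and in Tem1lacZ/lacZ mice the lowest traction library lay just under the highest sham library. The group means were 3.01 ± 1.11, 33.0 ± 34.7, 5.74 ± 3.85 and 14.1 ± 3.60 CPM (SD, n = 3). *Chil3* was the gene least concentrated in 1 library, with 43.1% of its summed CPM in Tem1WT/WT traction replicate 1 against 54.1% to 90.1% for the 8 others.

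*Retnlg*, a resistin-like protein of neutrophils, was at 1.30, 1.47 and 4.37 CPM in Tem1WT/WT sham, 53.5, 4.0 and 4.13 with traction, 3.07, 1.33 and 2.1 in Tem1lacZ/lacZ sham and 0.542, 1.26 and 9.65 with traction. Beyond the 2 libraries at 53.5 and 9.65 CPM its levels were 0.542 to 4.37 CPM. The group means were 2.38 ± 1.73, 20.5 ± 28.5, 2.17 ± 0.873 and 3.82 ± 5.07 CPM (SD, n = 3). *Ly6g* had 0 counts in all 3 Tem1WT/WT sham libraries, 158, 8 and 2 counts with traction, 0, 0 and 4 in Tem1lacZ/lacZ sham and 0, 0 and 6 with traction. It was below detection in 7 of the 12 libraries, and 90.1% of its summed CPM lay in Tem1WT/WT traction replicate 1. Against a floor of 3 counts per library, its mean of 1.33 CPM in Tem1WT/WT traction was at least 25.2-fold higher than in Tem1WT/WT sham. Without replicate 1, which held 158 of those counts, the mean was 0.109 CPM and the bound 2.07-fold.

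**Figure D1:**
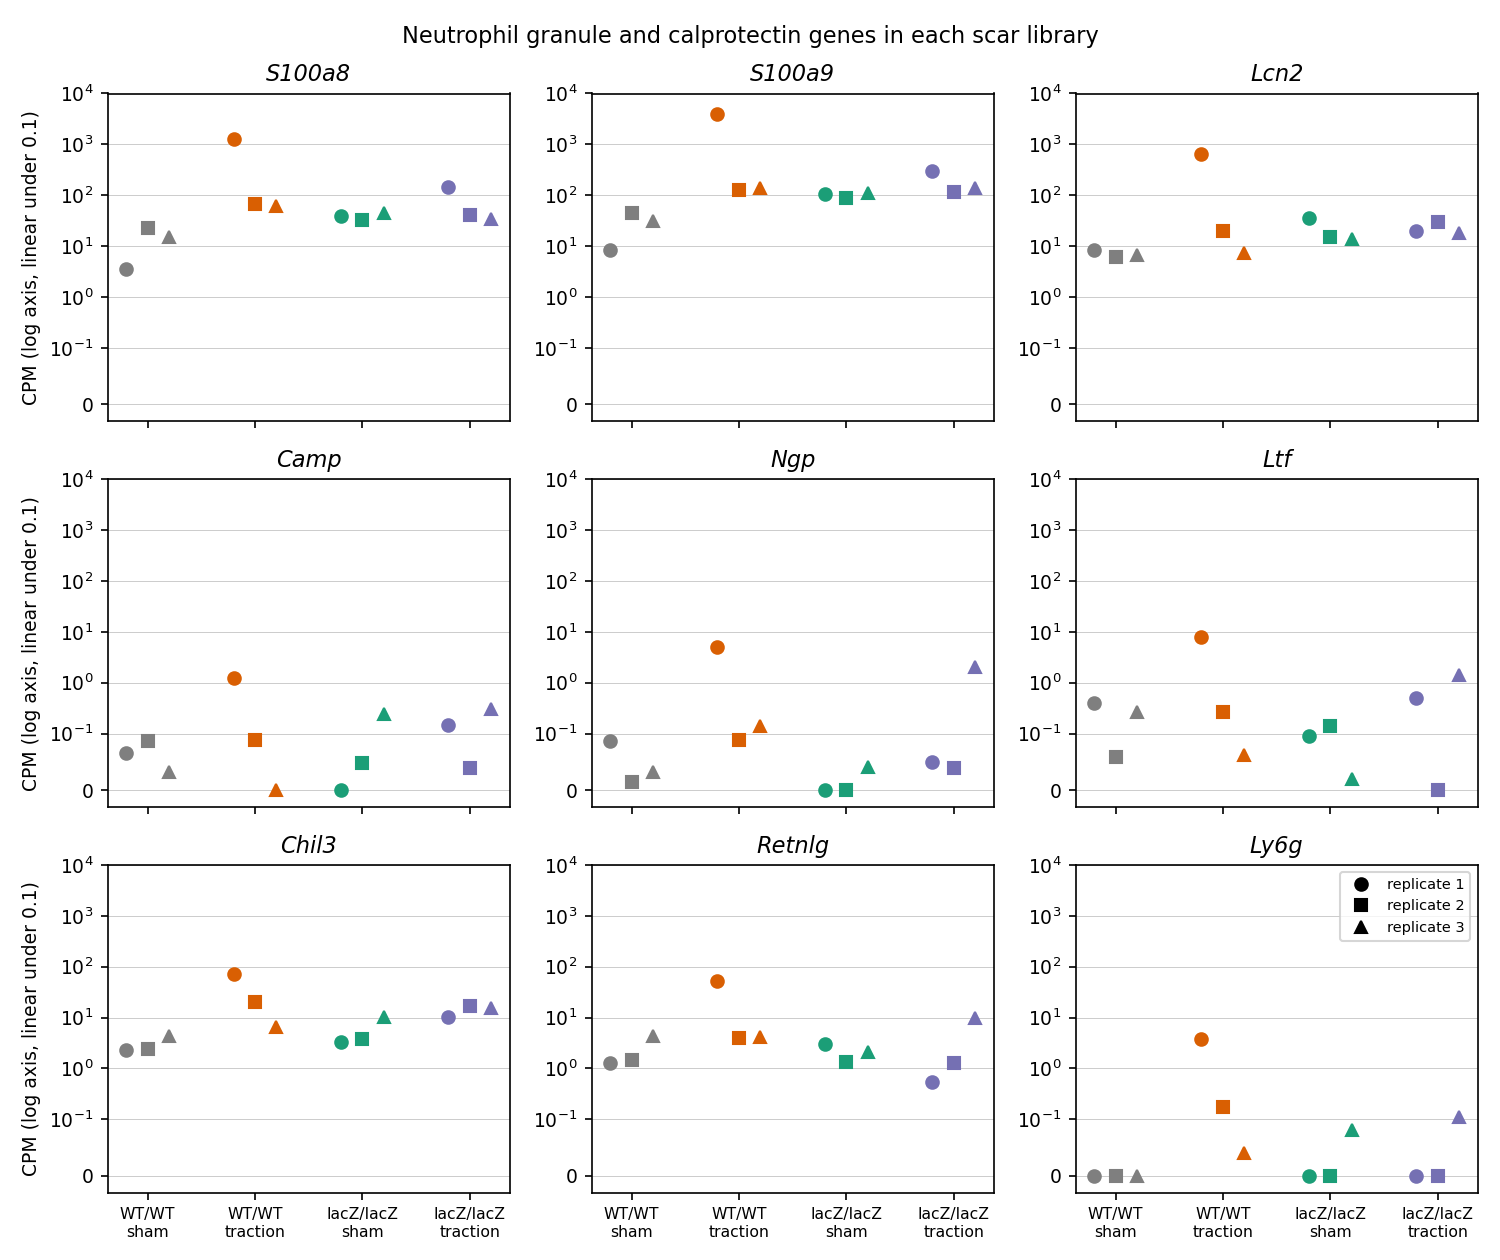
TMM-normalized CPM of each of the 9 genes (log axis, linear below 0.1 and down to 0), with 1 point per library, colored by group and shaped by replicate. The circle of the Tem1WT/WT traction group is the highest point in each of the 9 panels, and the Tem1WT/WT sham libraries of *S100a8* and *S100a9* lie below the 9 other libraries.

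Between genes, levels were compared as CPM per kb of exon. *S100a9* was the highest of the 9 genes and *S100a8* the second in each of the 12 libraries, with medians of 218 (range 16.3 to 7538) and 57.3 (5.04 to 1867). *Lcn2* (median 6.19, range 2.36 to 248), *Chil3* (5.10, 1.41 to 44.3) and *Retnlg* (4.36, 0.914 to 90.2) formed a middle tier whose order changed from library to library. *Camp* (0.10), *Ngp* (0.0367), *Ltf* (0.0586) and *Ly6g* (0) had medians far lower, with highest values of 1.63 to 4.13. The ratio of *S100a9* to *S100a8* stayed between 2.53 and 5.51 (median 3.24) and was 4.04 in Tem1WT/WT traction replicate 1.

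The ratio of *S100a9* to *Csf3r*, the receptor for the neutrophil growth factor G-CSF, moved far more, from 3.03 to 67.9. It was 3.73, 23.1 and 10.7 in Tem1WT/WT sham and 59.0, 67.9 and 45.5 in Tem1lacZ/lacZ sham, which did not overlap. With traction it was 28.5, 3.03 and 18.9 in Tem1WT/WT and 52.6, 14.01 and 28.7 in Tem1lacZ/lacZ mice, which did. *Lcn2* stood at 1.05% to 19.9% of *S100a9* per length.

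**Figure D2:**
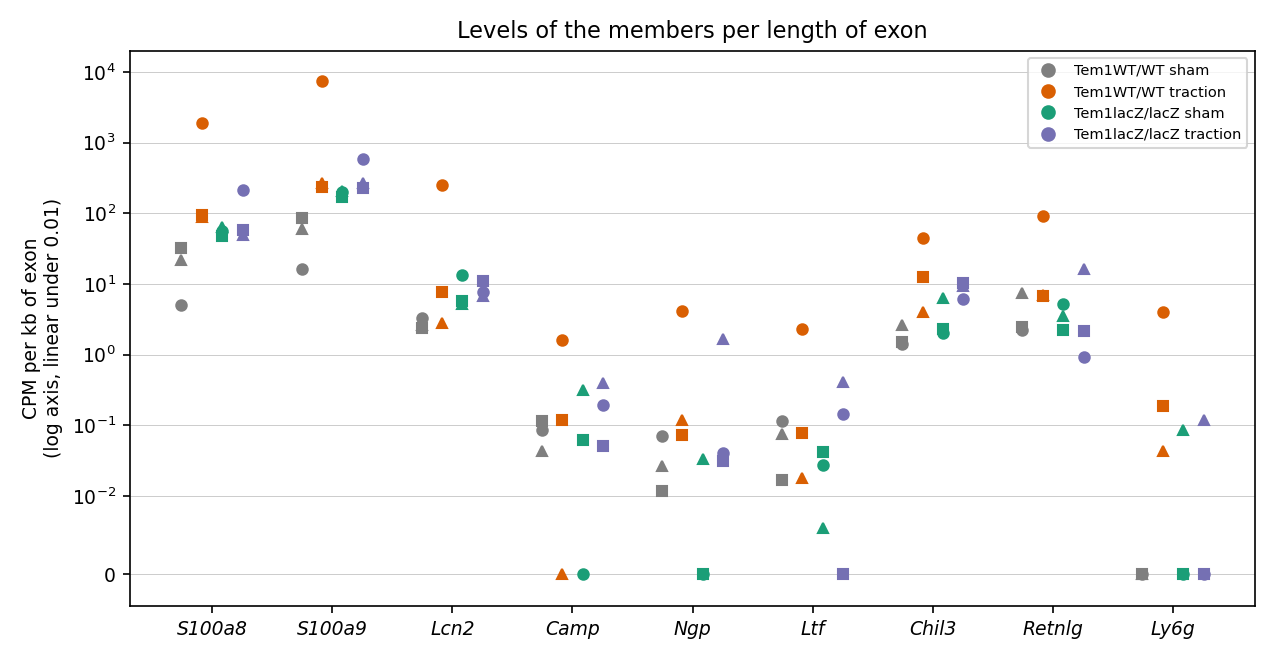
CPM per kb of exon (log axis, linear below 0.01 and down to 0) for the 9 genes, 1 point per library, with colors for the groups and circles, squares and triangles for replicates 1, 2 and 3. *S100a9* and *S100a8* lie above the 7 other genes in every library, and *Camp*, *Ngp*, *Ltf* and *Ly6g* reach 1.63 to 4.13 at most.

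Traction against sham in Tem1WT/WT mice asks what stretching does to a scar in mice with intact *Tem1*. Of the 9 genes, 7 passed edgeR's filter on low counts (all but *Ngp* and *Ly6g*) and were tested among 18853 genes. With traction, 4 of the 7 rose at an adjusted p under 0.05 (edgeR's quasi-likelihood test, Benjamini-Hochberg adjustment over all genes), where 9.15% of all tested genes were called and 5.61% were called higher. *Chil3* rose by a log2 fold change of 3.45 (SE 0.78, adjusted p = 0.0329 in edgeR). *S100a9* rose by 5.63 (SE 1.33, adjusted p = 0.0349 in edgeR) and *S100a8* by 5.12 (SE 1.28, adjusted p = 0.0386 in edgeR). *Lcn2* rose by 4.98 (SE 1.36, adjusted p = 0.0473 in edgeR), although its groups overlapped.

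The 3 other genes tested did not pass. Their log2 fold changes were 3.54 for *Ltf* (SE 1.66, adjusted p = 0.171 in edgeR), 3.10 for *Retnlg* (SE 1.22, adjusted p = 0.113) and 2.77 for *Camp* (SE 1.47, adjusted p = 0.221). The groups did not overlap for *S100a8*, *S100a9* and *Chil3* among the 7 tested genes, where 17.7% of all tested genes were non-overlapping and higher, nor for the untested *Ngp* and *Ly6g*. For *Ngp* the margin was small, with 0.0868 CPM in the highest sham and 0.0883 CPM in the lowest traction library. For *Ly6g* the lowest traction library had 2 counts against 0 in the sham libraries, within the 3 counts that a library at 0 allows. At an unadjusted p under 0.05 there were 5 of 7 (the 4 called and *Retnlg*), where 31.4% of all genes were. The median over the 7 tested genes was a log2 fold change of 3.54, against −0.01 over all genes. A gene can pass the filter through the group in which it is high, so the counts and medians over these 7 genes are descriptions.

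The calls were lost when any of several libraries was left out. Without replicate 1, 2 or 3 of the Tem1WT/WT sham group 0 of these genes were called by edgeR, where 0%, 0% and 4.22% of all genes were, and without Tem1lacZ/lacZ sham replicate 3 also 0, where 0.873% were. The calls became 0 with no filter on low counts (3.54% of all genes) or with the 6 libraries alone (0% of all genes), and 1, *Chil3*, with a replicate block (7.78%).

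The sizes of the changes depended on replicate 1 of the traction group. Its level of each gene divided by the mean of replicates 2 and 3 was 20.3 for *S100a8*, 29.6 for *S100a9*, 47.4 for *Lcn2*, 28.0 for *Camp*, 43.5 for *Ngp*, 48.2 for *Ltf*, 13.2 for *Retnlg*, 34.5 for *Ly6g* and 5.40 for *Chil3*, where the median gene stood at 0.956. Without that library 0 of 7 genes were called by edgeR (1.86% of 19388 genes were), and 3 of them, *S100a8*, *S100a9* and *Chil3*, had an unadjusted p under 0.05, where 26.9% of all genes did. The log2 fold changes were then 2.21 for *S100a9* (SE 0.55, adjusted p = 0.0555 in edgeR), 2.20 for *S100a8* (SE 0.70, adjusted p = 0.0878) and 2.14 for *Chil3* (SE 0.57, adjusted p = 0.0611). *Lcn2* came to 0.93 (SE 0.48, adjusted p = 0.234), *Retnlg* to 0.75 (SE 0.97, adjusted p = 0.646), *Camp* to −0.51 and *Ltf* to −0.52. Those of *Camp* and *Ltf* thus changed sign, while those of the calprotectin pair and *Chil3* remained above 2.

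The number of calls also depended on the tool. DESeq2's Wald test called 1 gene, *Chil3*, of the 3 for which it gave an adjusted p, where 21.5% of all genes were called. With its outlier filter off it called 5 of 7, the 4 above and *Retnlg* (log2 fold change 3.14, adjusted p = 0.0429), where 22% of all genes were called. Limma-voom with sample weights called 0 of 7, where 3.97% of all genes were called.

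**Figure D3:**
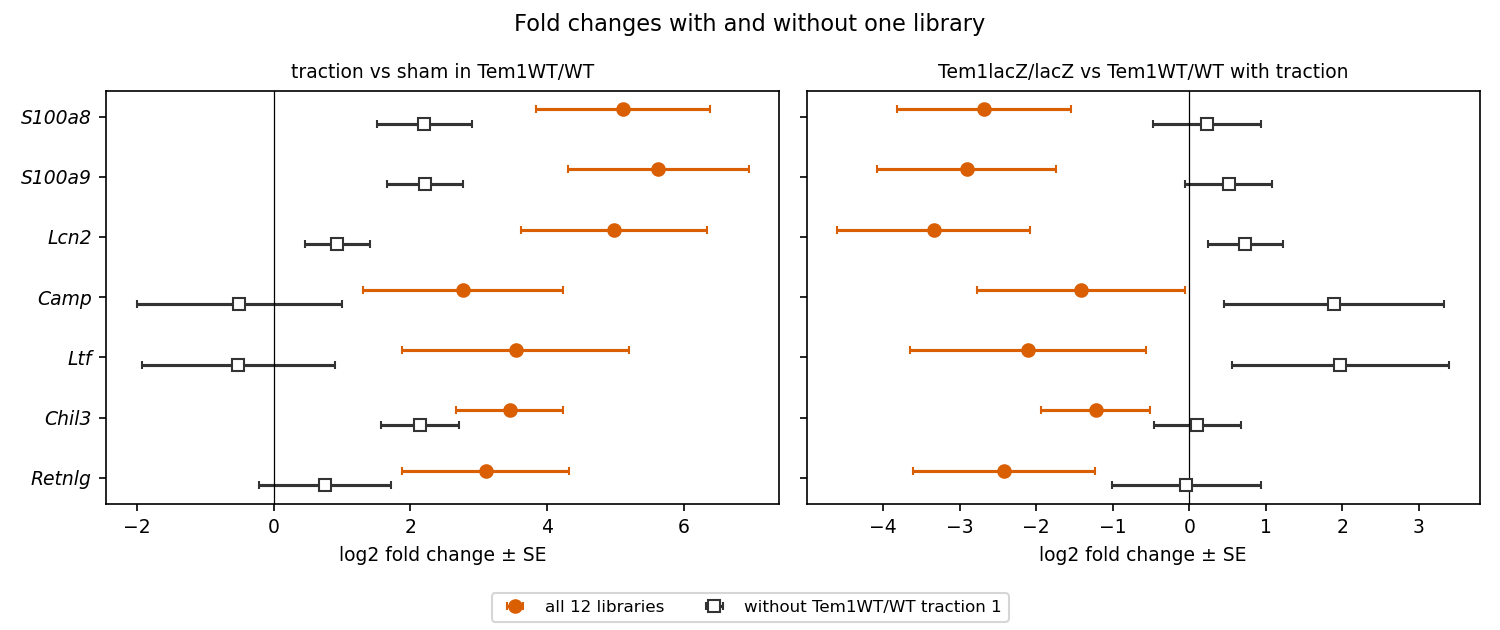
Log2 fold changes ± SE from edgeR for the 7 tested genes in 2 comparisons, from all 12 libraries (filled circles) and without Tem1WT/WT traction replicate 1 (open squares). In the left panel *S100a8*, *S100a9* and *Chil3* move to 2.20, 2.21 and 2.14 without that library and *Camp* and *Ltf* to just under 0, and in the right panel all but *Retnlg* move from negative to positive values.

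Traction against sham in Tem1lacZ/lacZ mice asks the same in the absence of *Tem1*. None of the 7 tested genes was called by edgeR (0 at an unadjusted p under 0.05, where 8.12% of all genes were), where 0% of all genes were called. Limma-voom also called 0 of 7 (2.31% of all genes). DESeq2 gave an adjusted p for 1 of the 7, or 5 with its outlier filter off, and called 0 of these (0.149% of all genes either way). The highest log2 fold change was that of *Ltf*, 2.87 (SE 1.81, adjusted p = 0.673 in edgeR), carried by the 74 counts of replicate 3. *Chil3* was at 1.30 (SE 0.72, adjusted p = 0.647), *S100a8* at 0.93 (SE 1.08, adjusted p = 0.825) and *S100a9* at 0.89 (SE 1.10, adjusted p = 0.835). *Retnlg* was at 0.82, *Camp* at 0.69 and *Lcn2* at 0.08. The groups did not overlap for *S100a9* alone, where 6.77% of all genes were non-overlapping and higher, and by a margin of 109 to 118 CPM. The median over the 7 genes was 0.89, against −0.02 over all genes. The model shares its spread over all groups, so Tem1WT/WT traction replicate 1 also entered these SEs. Without it the SEs were 0.50 for *S100a9*, 0.63 for *S100a8* and 0.52 for *Chil3*, at log2 fold changes of 0.91, 0.95 and 1.34. Of the 7 genes 0 were called (0% of all genes). Only *Chil3* had an unadjusted p under 0.05 (0.026, adjusted p = 0.428 in edgeR), where 10.9% of all genes did.

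Replicates 1 and 3 of the Tem1lacZ/lacZ traction group were high in different genes. Replicate 1 had the highest *S100a8* (148 CPM) and *S100a9* (302 CPM) of its group and the lowest *Retnlg* (0.542 CPM), with 2 counts of *Ngp* and 0 of *Ly6g*. Replicate 3 had the lowest *S100a8* (34.0 CPM) and the highest *Retnlg* (9.65 CPM), with 109 counts of *Ngp*, 74 of *Ltf*, 16 of *Camp* and 6 of *Ly6g*. Leaving out replicate 1 took *S100a8* to −0.01 and leaving out replicate 3 took *Retnlg* to −1.26 and *Camp* to −0.15 on the log2 scale.

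The comparison of genotypes with traction asks whether the stretched scar differs without *Tem1*, and it shares the Tem1WT/WT traction libraries with the first comparison. In edgeR 0 of 7 genes were called, where 0.106% of all genes were, and 3 (*S100a8*, *S100a9* and *Lcn2*) had an unadjusted p under 0.05, where 26.1% of all genes did. All 7 log2 fold changes were negative, among them −3.34 for *Lcn2* (SE 1.26, adjusted p = 0.138 in edgeR), −2.91 for *S100a9* (SE 1.17, adjusted p = 0.154) and −2.68 for *S100a8* (SE 1.14, adjusted p = 0.17). *Retnlg* was at −2.42, *Ltf* at −2.11, *Camp* at −1.41 and *Chil3* at −1.22, and the groups overlapped for each of the 7 genes, where 26.6% of all genes were non-overlapping in either direction. Without Tem1WT/WT traction replicate 1 the values became 0.73 for *Lcn2* (SE 0.49), 0.51 for *S100a9* (SE 0.56) and 0.23 for *S100a8* (SE 0.70), with adjusted p from 0.394 to 0.985 over the 7 genes. Then 0 of the 7 had an unadjusted p under 0.05 in edgeR, where 20.4% of all genes did. DESeq2 gave an adjusted p for 2 of the 7 and called 0 (12.4% of all genes). With its outlier filter off it gave 6 and called 1, *Lcn2* (log2 fold change −3.37, adjusted p = 0.0432), where 12.9% of all genes were called. Limma-voom called 0 of 7 (0.0849% of all genes).

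In the sham groups, the comparison of genotypes asks whether the unstretched scar differs without *Tem1*, and it shares its libraries with both traction comparisons. In edgeR 0 of 7 genes were called (0 at an unadjusted p under 0.05, where 11.7% of all genes were), where 0.0106% of all genes were called. Limma-voom called 0 of 7 (0.0053% of all genes), and DESeq2 called 0 of the 1 gene with an adjusted p, or of 6 with its outlier filter off (0.228% and 0.164% of all genes). *S100a8*, *S100a9* and *Lcn2* nevertheless lay higher in each Tem1lacZ/lacZ sham library than in each Tem1WT/WT sham library, where 13% of all genes were non-overlapping and higher. The log2 fold changes were 1.83 for *S100a9* (SE 1.12, adjusted p = 0.524 in edgeR), 1.57 for *Lcn2* (SE 1.19, adjusted p = 0.598) and 1.503 for *S100a8* (SE 1.10, adjusted p = 0.586). *Chil3* was at 0.93, *Camp* at 0.67, *Retnlg* at −0.14 and *Ltf* at −1.44. Leaving Tem1WT/WT traction replicate 1 out of the model, which shares its spread over all groups, lowered the SEs of *S100a9* and *Lcn2* to 0.51 and 0.44 at log2 fold changes of 1.81 and 1.55, and both then had an adjusted p of 0.345 in edgeR. Without that library 0 of 7 genes were called, where 0.0103% of all genes were. An unadjusted p under 0.05 in edgeR was then reached by 3 genes (*S100a9*, *Lcn2* and *S100a8*), where 13.7% of all genes did so.

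The genotype by traction interaction asks whether the effect of traction differed between genotypes. In edgeR 0 of 7 genes were called, where 0% of all genes were, and 3 (*S100a9*, *Lcn2* and *S100a8*) had an unadjusted p under 0.05, where 8.91% of all genes did. Limma-voom called 0 of 7 (0% of all genes), and DESeq2 called 0 of the 3 genes with an adjusted p, or of 6 with its outlier filter off (0.366% and 0.403% of all genes). The log2 differences were −4.90 for *Lcn2* (SE 1.72), −4.74 for *S100a9* (SE 1.62) and −4.18 for *S100a8* (SE 1.58), each with an adjusted p of 0.548 in edgeR. *Chil3* was at −2.15 (SE 1.02, adjusted p = 0.556), *Retnlg* at −2.28, *Camp* at −2.08 and *Ltf* at −0.67. Without Tem1WT/WT traction replicate 1, *S100a9* was at −1.30 (SE 0.74), *S100a8* at −1.26 (SE 0.93), *Lcn2* at −0.82 (SE 0.64) and *Chil3* at −0.80 (SE 0.76), whereas *Retnlg* was at 0.11, *Camp* at 1.24 and *Ltf* at 3.43. Without that library 0 of 7 genes had an unadjusted p under 0.05 in edgeR, where 7.98% of all genes did. A difference between the genotypes in the response of these genes to traction was therefore not shown.

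The other genes of the pathway were read from hand-written lists. In Tem1WT/WT mice edgeR called 10 of 14 tested neutrophil membrane and receptor genes higher with traction and 0 lower (median log2 fold change 4.54). Of all tested genes 5.61% were called higher. *Csf3r* rose by 4.70 (SE 0.83, adjusted p = 0.0252 in edgeR), *Clec4d*, a C-type lectin receptor, by 4.41, *Cxcr2*, the receptor for neutrophil-attracting chemokines, by 4.86, and *Clec4e*, also known as Mincle, by 6.09. The levels of *Csf3r* were 15.8, 13.6 and 20.1 CPM in Tem1WT/WT sham, 954, 285 and 51.6 with traction, 12.1, 9.14 and 16.6 in Tem1lacZ/lacZ sham and 39.7, 58.3 and 33.9 with traction. In replicate 2 of the Tem1WT/WT traction group *Csf3r* was at 285 CPM against 20.1 CPM in the highest sham library, and *S100a8* at 65.7 CPM against 22.5 CPM. *Csf3r* did not overlap between sham and traction in either genotype. Without Tem1WT/WT traction replicate 1, 5 of 14 were called higher, where 1.86% of all genes were called. *Csf3r*, *Cd300lf*, *Trem1* and *Trem3* were among these, and the median of the list was 2.70.

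The summed level of this list was 74.4 to 114 CPM in Tem1WT/WT sham and 232 to 4001 CPM with traction, and 87.4 to 98.0 and 164 to 194 CPM in Tem1lacZ/lacZ mice. In Tem1lacZ/lacZ mice 0 of 14 were called with traction by edgeR, DESeq2 or limma-voom (*Csf3r* alone had an unadjusted p under 0.05 in edgeR), and 7 of 14 did not overlap and were higher, where 6.77% of all genes were. Between genotypes with traction edgeR called 0 of 14, and all 14 had an unadjusted p under 0.05, where 26.1% of all genes did. DESeq2 called 9 lower of 10 with an adjusted p, where it called 12.4% of all genes, and limma-voom called 0. The median there was −3.15, and −1.07 without Tem1WT/WT traction replicate 1.

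Among other granule proteins, 5 of 19 tested genes rose with traction in Tem1WT/WT mice and 0 fell (median 1.34), where 5.61% of all genes were called higher. They included *Mmp9*, the gelatinase of the tertiary granules (4.17, SE 0.71), *Adam8*, a membrane protease (2.80, SE 0.73), and *Ncf4* and *Cyba*, subunits of the NADPH oxidase (2.15 and 1.34). The fifth was *Olfm4*, a secondary granule glycoprotein (5.85). Without Tem1WT/WT traction replicate 1, *Mmp9* rose and *Orm1*, an acute phase protein, fell, where 1.86% of all genes were called. Of the receptors for calprotectin and granule proteins, 4 of 11 rose and 0 fell (median 0.50), where 5.61% of all genes were called higher. They were *Cd14*, the co-receptor of bacterial lipopolysaccharide (4.04, SE 0.95), *Fpr2*, a formyl peptide receptor (4.197, SE 1.06), *Cd33*, a sialic acid-binding lectin (2.14, SE 0.51), and *Lrp1*, a lipoprotein receptor (1.45, SE 0.40). *Cd33* alone was called without that library, where 1.86% of all genes were.

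The primary granule genes of immature neutrophils were near the floor. Of 4 tested, 0 were called by edgeR, DESeq2 or limma-voom in Tem1WT/WT mice (0 at an unadjusted p under 0.05, median −0.18), with −0.50 (SE 1.02) for *Prtn3* and 0.14 (SE 0.57) for *Ctsg*, both proteases of those granules. Their summed level was 0.858 to 5.71 CPM over the 12 libraries, and 2.36 CPM in Tem1WT/WT traction replicate 1.

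Of the close relatives of the 9 genes, none was called higher by edgeR with traction in Tem1WT/WT mice. Of all genes 5.61% were called higher there, and 9.15% in either direction. Of 11 other S100 genes, 0 rose and 1, *S100a1*, fell with traction in Tem1WT/WT mice (−0.76, SE 0.19, list median −0.30). Of 4 chitinase-like genes, *Chit1* fell (−0.97, SE 0.25) and 0 rose. Of the resistin genes, *Retnla* was at −4.11 (SE 1.48, adjusted p = 0.0905 in edgeR) and *Retn* at −0.89, neither called. DESeq2 called *S100a11* higher, *S100a3* lower and *Retnla* lower as well, where it called 21.5% of all genes. Of 12 other Ly6 genes 0 were called in edgeR (4 had an unadjusted p under 0.05), with a median of 0.28 and a range of −2.01 to 6.32. *Ly6d* was at 0.37 and *Ly6e* at 0.58. The highest, *Ly6i*, was at 6.32 (SE 1.92, adjusted p = 0.0595 in edgeR), was called higher by DESeq2 with its outlier filter off, and is among the genes below whose pattern was most like that of the 9. DESeq2 called *Ly6g6d* lower, and limma-voom called 0.

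Marker lists of other cells that make some of these genes were read the same way. Of 10 wound-edge keratinocyte genes, edgeR called 2 higher with traction in Tem1WT/WT mice, where 5.61% of all genes were. They were *Slpi* (4.30, SE 0.96) and *Sprr2h* (2.86, SE 0.74), and 0 were called without replicate 1 of the traction group (1.86% of all genes). DESeq2 called 4 higher, these 2 with *Krt16* and *Il1f9* (21.5% of all genes), and limma-voom *Slpi* alone (3.97%). The summed level of the list was 3298 to 9116 CPM in Tem1WT/WT sham, 6887 to 21521 with traction, 11448 to 13956 in Tem1lacZ/lacZ sham and 4390 to 27063 with traction, and none of its 10 genes was at 0 in any library. The library with the highest summed level was replicate 1 of the Tem1lacZ/lacZ traction group, which was second in *S100a8* and *S100a9*, and the library next to it was Tem1WT/WT traction replicate 1. In the sham groups 7 of the 10 genes were non-overlapping and higher in Tem1lacZ/lacZ mice (0 called in edgeR, median 1.00), where 13% of all genes were. *S100a8*, *S100a9* and *Lcn2* were so too. By the same measure there were 3 of 5 red cell, 4 of 11 other S100, 3 of 12 Ly6, 3 of 11 receptor and 1 of 6 basal and differentiated keratinocyte genes. There were 0 of 14 neutrophil membrane and receptor genes (median −0.14), 0 of 19 other granule proteins and 0 in each list not named here. The part of either cell type in the levels of the 9 genes was not tested.

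Of 5 red cell genes, 4 rose with traction in Tem1WT/WT mice, where 5.61% of all genes were called higher. The number was also 4 without replicate 1 of the traction group, where 1.86% of all genes were called. *Hba-a1*, a hemoglobin gene, rose by 1.06 (SE 0.17), *Hbb-bs* by 1.30 (SE 0.18), *Hba-a2* by 1.48 (SE 0.27) and *Alas2*, an enzyme of heme synthesis, by 1.04 (SE 0.18). Their summed level was 107 to 128 CPM in Tem1WT/WT sham, 231 to 282 with traction and 106 to 169 in the 6 Tem1lacZ/lacZ libraries. The part of blood left in the tissue in the levels of the 9 genes was not tested.

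The summed level of 12 monocyte and macrophage genes was 1848 to 2753 CPM in Tem1WT/WT sham, 2715 to 3109 with traction, 1405 to 2432 in Tem1lacZ/lacZ sham and 1504 to 2909 with traction. Of the eosinophil genes 0 of 4 were called by edgeR (1 had an unadjusted p under 0.05) or limma-voom, with *Ccr3* at −0.60 and *Siglecf* at 1.15, and DESeq2 called *Il5ra* lower. Of the basal and differentiated keratinocyte genes 0 of 6 were called by edgeR (0 at an unadjusted p under 0.05), DESeq2 or limma-voom, with *Krt14* at 1.00 and *Krt5* at 0.14. The mean log2 CPM of the latter list was 8.66 in Tem1WT/WT traction replicate 1, the library with the highest level of each of the 9 genes, against 10.05 to 11.52 in the 11 others. Its part in their levels was not tested. Of the fibroblast genes edgeR called 1 of 6 higher, *Pdgfra* (1.45, SE 0.33), where 5.61% of all genes were. Without replicate 1 of the Tem1WT/WT traction group 0 were called (1.86% of all genes). The list median was 1.265, and 4 of 6 had an unadjusted p under 0.05 in edgeR, where 31.4% of all genes did. DESeq2 called 4 higher, *Col1a1*, *Col1a2*, *Col3a1* and *Pdgfra* (21.5% of all genes), and limma-voom called 0 (3.97%).

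Across libraries the 9 genes did not move as a single block. Correlations of log2 CPM are given as a description, since both sides come from the same 12 libraries and share their depth and their groups. *S100a8* and *S100a9* had r = 0.99 over 12 libraries and 0.97 over the 11 without Tem1WT/WT traction replicate 1. *S100a8* with *Lcn2* had 0.82 and 0.48, with *Chil3* 0.81 and 0.62, with *Retnlg* 0.56 and −0.07, with *Ngp* 0.56 and 0.02, and with *Ltf* 0.50 and −0.11. Among *Camp*, *Ngp*, *Ltf*, *Chil3*, *Retnlg* and *Ly6g*, r without that library ran from 0.00 for *Camp* with *Retnlg* and 0.07 for *Ltf* with *Chil3* to 0.63 for *Ngp* with *Ltf* and 0.67 for *Chil3* with *Ly6g*. *Camp*, *Ngp*, *Ltf* and *Ly6g* have few counts, so a weak correlation of theirs shows little.

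Set against the marker lists, *S100a8* followed the mean log2 CPM of the wound-edge keratinocyte genes with r = 0.90 over 12 libraries and 0.89 over 11, and that of the neutrophil membrane and receptor genes with 0.84 and 0.56. *S100a9* had 0.89 and 0.87 with the former list and 0.84 and 0.55 with the latter. *Chil3* had the opposite order, with 0.90 and 0.82 for the neutrophil list and 0.66 and 0.47 for the wound-edge list. *Retnlg* had 0.79 and 0.41 for the neutrophil list and 0.39 and −0.07 for the wound-edge list, and *Ly6g* had 0.92 and 0.69, and 0.55 and 0.15. *Lcn2* went from 0.81 to 0.23 with the neutrophil list and from 0.66 to 0.45 with the wound-edge list once that library was left out. Other lists were followed as closely or more so by some genes. *S100a8* and *S100a9* had −0.39 and −0.40 with the basal and differentiated keratinocyte genes over 12 libraries but 0.74 and 0.78 over 11. *Retnlg* had 0.94 and 0.83 with the other granule proteins, 0.78 and 0.78 with the monocyte and macrophage genes and 0.50 and 0.86 with the eosinophil genes. The differences between these correlations were not tested.

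**Figure D4:**
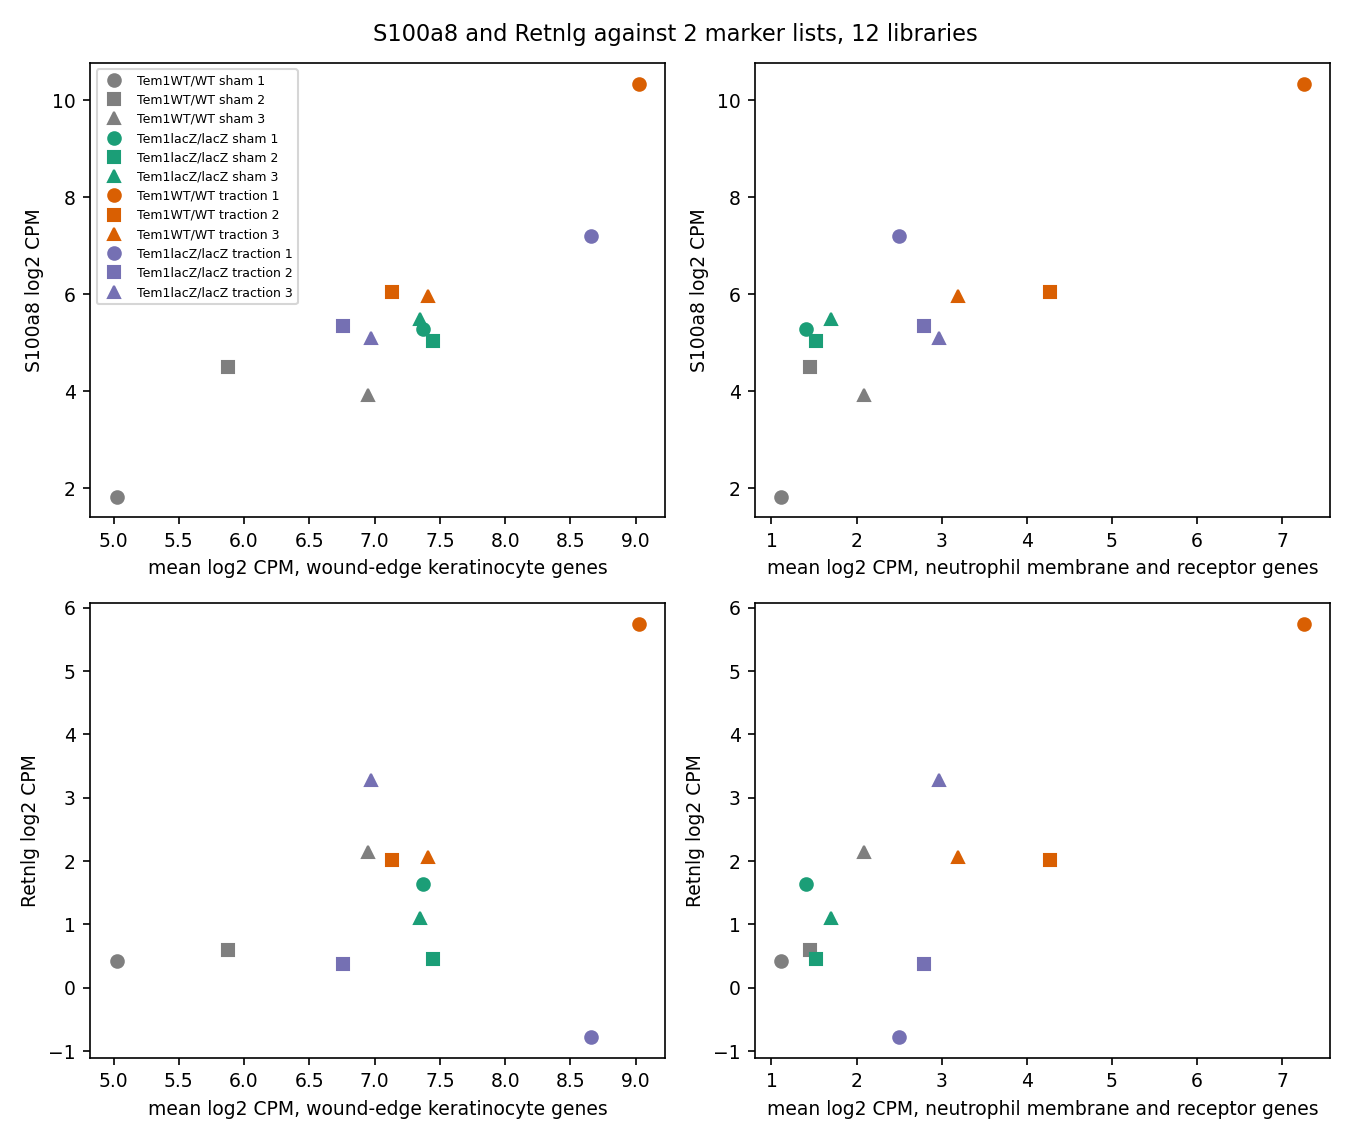
Log2 CPM of *S100a8* (upper panels) and *Retnlg* (lower panels) against the mean log2 CPM of wound-edge keratinocyte genes (left) and neutrophil membrane and receptor genes (right), with 1 point per library, colored by group and shaped by replicate. Tem1WT/WT traction replicate 1 is at the upper right of all 4 panels, and Tem1lacZ/lacZ traction replicate 1 is second highest in *S100a8* and lowest in *Retnlg*.

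The genes whose log2 CPM followed the mean of the 7 tested genes most closely over the 12 libraries were *Isg20*, *Tarm1*, *Srgn*, *Slfn4*, *Olfr56*, *5430427O19Rik*, *Stx11*, *Itpk1*, *Ly6i* and *Lilrb4a*, with r from 0.94 to 0.97. *Srgn* encodes serglycin, the proteoglycan core of granules in blood cells, and *Tarm1* a receptor of myeloid cells. Over the 11 libraries without Tem1WT/WT traction replicate 1 they were *Dpf1*, *Mlkl*, *Gm39151*, *Primpol*, *Isg20*, *Tarm1*, *Il1f6*, *Gm17330*, *Nmu* and *Rab5c*, with r from 0.82 to 0.89. *Isg20* and *Tarm1* were in both sets of 10, and *Il1f6*, an epidermal cytokine of the IL-36 group, is also on the wound-edge list.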

How the data were processed

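RNA of 12 mouse scars, 3 mice per group as labelled, was measured by RNA-seq with stranded poly(A) libraries. The authors removed low-quality bases with fastp 0.20.0, aligned reads to GRCm38 with HISAT2 2.1.0 and counted them on genes with featureCounts 2.0.0, per the submitters' processing notes, and deposited whole-number counts per gene without normalization. How strand and reads with several alignments were treated, and which annotation was used, is not given in the sources used here, so reads shared with near-identical copies could have been split or dropped.

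Counts were analysed in R 4.3.3 with edgeR 4.0.16 (filterByExpr by group, TMM, robust quasi-likelihood fit of the 4 groups in a single model, 8 residual degrees of freedom, two-sided tests). P-values were adjusted by Benjamini-Hochberg over all 18853 genes, with a threshold of 0.05. The SE is the absolute log2 fold change divided by the square root of the F statistic. The biological coefficient of variation was 34.2%, and 41536788 to 64644293 counts per library set the precision of low genes. No 2 libraries of a group were copies. Correlations used log2 CPM with a prior count of 2.

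The 9 genes and the 14 marker, pathway and family lists were chosen with earlier results of these data known. All 9 genes were named. Of each list, up to 4 called genes with the highest mean log2 CPM were named or, with none called, the 2 highest, together with the 10 genes most like the 9. Some results of the lists are not reported here. Genes named as still called without a library or as called by DESeq2 alone, *Olfm4*, *Ly6i* and the genes between *Camp* and *Ltf* were picked from their values. Other settings tried were DESeq2 1.42.0, limma-voom (limma 3.58.1), size factors of DESeq2 or upper quartile scaling, no filter, a fit that was not robust, a replicate block, the 6 libraries compared alone and leaving out each library. DESeq2 without its outlier filter, and the lists without Tem1WT/WT traction replicate 1, were added after seeing the data. The tests were first tested on simulated data. Exonic lengths came from GENCODE vM21. Figures were drawn with Python 3.11.15 and matplotlib 3.10.9.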

Additional observations from a re-analysis of the deposited data

How the results depend on the processing

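Over all alternatives, 95 of 142 values for the 7 tested genes with traction in Tem1WT/WT mice kept their direction and side of the threshold, 44 kept the direction without passing it, 1 passed it newly and 2 changed sign. In the other comparisons 131 of 137 (traction in Tem1lacZ/lacZ), 132 of 140 (genotypes with traction), 135 of 138 (genotypes without traction) and 130 of 135 (interaction) were kept, and 6, 7, 3 and 5 changed sign. The 4 genes called with traction in Tem1WT/WT mice became 1 (*Chil3*) with DESeq2 (21.5% of all genes called) or the replicate block (7.78%). They became 0 with no filter on low counts (3.54%), limma-voom (3.97%) or the 6 libraries alone. With the 6 libraries alone, or without Tem1WT/WT sham replicate 1 or 2, 0% of all genes were called, so those values say nothing about these genes. They ranged from 0 to 4 when libraries were left out in turn, with 0 without any 1 of the Tem1WT/WT sham libraries, Tem1WT/WT traction replicate 1 or Tem1lacZ/lacZ sham replicate 3. They came to 2 (*Chil3* and *S100a9*) without Tem1lacZ/lacZ sham replicate 1 or 2 or Tem1lacZ/lacZ traction replicate 2 or 3, where 4.97% to 5.79% of all genes were called. The median log2 fold change of 3.54 became 4.98 with no filter, where *Ngp* and *Ly6g* enter, 2.01 with limma-voom and 0.93 to 4.85 when a library was left out.

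For the genotypes with traction the median was −0.55 with limma-voom and −2.78 to 0.51 when a library was left out, and DESeq2 without its outlier filter called 1 gene. The interaction median was −3.84 to −0.80. With limma-voom *Camp* changed sign to 0.90 (genotypes with traction) and 0.24 (interaction), and *Ltf* to 1.01 (interaction). The cause was not tested. When a library was left out, values that changed sign ranged as follows. With traction in Tem1WT/WT mice they were −0.51 to 3.37 for *Camp* and −0.52 to 4.13 for *Ltf*. With traction in Tem1lacZ/lacZ mice they were −0.014 to 1.27 for *S100a8*, −0.16 to 0.69 for *Lcn2*, −0.15 to 2.69 for *Camp* and −1.26 to 1.38 for *Retnlg*. Between genotypes with traction they were −3.65 to 0.23 for *S100a8*, −3.45 to 0.51 for *S100a9*, −3.90 to 0.73 for *Lcn2*, −2.25 to 1.89 for *Camp*, −3.51 to 1.98 for *Ltf* and −1.70 to 0.11 for *Chil3*. Without traction they were −1.31 to 1.19 for *Camp* and −0.50 to 0.65 for *Retnlg*, and for the interaction −2.92 to 1.24 for *Camp*, −2.10 to 3.43 for *Ltf* and −4.37 to 0.11 for *Retnlg*.

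The labels number the mice of each group and do not say whether a shared number marks a pair or a batch. Same-numbered libraries of different groups had correlations of −0.324 to 0.25 in their deviations from the group means (18 pairs, median 0.089, 8 over 0.1), and 8 of 12 libraries correlated best with their own number, a hint from the data and not from the design. With the replicate block 1 gene was called in Tem1WT/WT mice and 0 in the other comparisons. Depth limits *Camp*, *Ngp*, *Ltf* and *Ly6g*, which had 0 to 20 counts in most libraries. The rest are limited by 3 mice per group and by the weight of Tem1WT/WT traction replicate 1. An SE above 1 on the log2 scale leaves differences of several fold undecided. Without that library the SE with traction in Tem1WT/WT mice went from 1.33 to 0.55 for *S100a9*, from 1.36 to 0.48 for *Lcn2* and from 1.22 to 0.97 for *Retnlg*.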
